A study of Arabidopsis thaliana with 9 samples.

Results

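The 9 genes described here are terpene synthases (TPS) of Arabidopsis thaliana whose products are volatile terpenes or their precursors, and they were picked by locus identifier out of 33323 genes measured by RNA-seq. They are TPS02 (AT4G16730), TPS03 (AT4G16740), TPS04 (AT1G61120), TPS10 (AT2G24210), TPS11 (AT5G44630), TPS14 (AT1G61680), TPS21 (AT5G23960), TPS23 (AT3G25830) and TPS27 (AT3G25820). The samples were whole rosettes without roots, 23 days old, from 3 genotypes with 3 libraries each, and every library came from a pool of about 20 soil-grown plants kept at 20 °C in cycles of 16 h light and 8 h dark. The first genotype is jazD, which by background knowledge of the line carries mutations in 10 of the 13 JAZ genes (JAZ1 to JAZ7, JAZ9, JAZ10 and JAZ13). The second is jazQ, with mutations in 5 of those 10 (JAZ1, JAZ3, JAZ4, JAZ9, JAZ10), and the third is wild-type Col-0. The labels give the names of the lines and not their alleles, and an asterisk on the accession of the jazD plants has no explanation there. No hormone or insect was applied according to the labels, so each comparison asks how the transcripts differ between untreated lines. Any other difference between the lines cannot be told apart from the JAZ mutations.

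Terpene synthases turn prenyl diphosphates, made by the plastid MEP pathway and the cytosolic mevalonate pathway, into monoterpenes, sesquiterpenes and diterpene alcohols. In leaves several of these volatiles are released after insect feeding or jasmonate treatment, while others are scents of flowers or products of roots. JAZ proteins repress MYC2 and related transcription factors until jasmonate triggers their degradation, and MYC2 is known in Arabidopsis to act on sesquiterpene synthase genes of the flower.

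The members differ in what they make and where they are known to act. TPS04 makes geranyllinalool, the precursor of a homoterpene (TMTT) that leaves release when attacked. TPS10 is a monoterpene synthase, and TPS03 makes the acyclic terpenes (E)-β-ocimene and α-farnesene. TPS02 lies 1474 bases from TPS03 on chromosome 4 and shares 69.6% of aligned coding bases with it, and the RefSeq annotation describes the Columbia allele as not functional. TPS23 and TPS27 are tandem copies known as cineole synthases of the root, 4634 bases apart on chromosome 3. TPS14 is a linalool synthase, and TPS11 and TPS21 make sesquiterpenes of the flower.

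The promoters of the 3 genes on which the results turn are shown because MYC factors are known to bind G-box-like hexamers. Each sequence is the 250 bases before the annotated start of the gene, 5′ to 3′ on the coding strand, from the RefSeq copy of TAIR10.1. Capitals mark matches on either strand to the G-box CACGTG, its variant CACGTT, the further variant CACATG or the GCC-box GCCGCC.
TPS04, chr1:22523385-22523634, plus strand: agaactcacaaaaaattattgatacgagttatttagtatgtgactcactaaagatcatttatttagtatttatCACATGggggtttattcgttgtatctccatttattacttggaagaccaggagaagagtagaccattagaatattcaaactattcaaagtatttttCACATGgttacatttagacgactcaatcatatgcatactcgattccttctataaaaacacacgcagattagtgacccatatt
TPS10, chr2:10294036-10294285, plus strand: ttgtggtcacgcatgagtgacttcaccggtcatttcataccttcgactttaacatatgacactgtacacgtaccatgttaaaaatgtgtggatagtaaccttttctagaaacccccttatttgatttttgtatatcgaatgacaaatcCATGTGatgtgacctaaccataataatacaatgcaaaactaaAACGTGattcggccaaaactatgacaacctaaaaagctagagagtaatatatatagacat
TPS03, chr4:9407361-9407610, plus strand: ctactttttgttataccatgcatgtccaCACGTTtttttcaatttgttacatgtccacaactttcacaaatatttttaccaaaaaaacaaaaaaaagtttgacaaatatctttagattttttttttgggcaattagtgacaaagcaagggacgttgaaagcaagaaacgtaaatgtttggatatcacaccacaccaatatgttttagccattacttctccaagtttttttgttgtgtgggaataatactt
TPS04 held CACATG at 177 and again at 82 bases before the start. TPS10 held CATGTG, the reverse complement of CACATG, at 102 bases before the start and AACGTG, that of CACGTT, at 60. TPS03 held 1 match, CACGTT at 222 bases before the start. No window of the 9 genes held CACGTG or GCCGCC. Among the 250-base windows of 27443 genes, CACATG stood in 11.1%, CACGTT in 7.54%, CACGTG in 6.49% and GCCGCC in 1.87%. CACATG and CACGTT thus stood in the windows of 3043 and 2069 genes, and their matches are not particular to the genes shown. Over the 1000 bases upstream TPS03 held 2 CACGTT and 4 CACATG, TPS10 1 CACGTT and 2 CACATG, and TPS04 2 CACATG, so the order of the 3 genes by number of matches depends on the window, and a match here is a description of letters and not of a binding site.

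Total counts per library ran from 15370271 to 20730459. Transcripts of JAZ1, mutated in both lines, stood at 2.05, 2.69 and 2.26 CPM (counts scaled to library size) in jazD and 2.66, 2.54 and 2.79 CPM in jazQ, against 25.4, 26.5 and 23.8 CPM in Col-0. JAZ2, mutated in jazD alone, had 3.46, 2.63 and 3.22 CPM in jazD and 29.7, 47.3 and 31.4 CPM in jazQ, against 21.1, 21.7 and 26.9 CPM in Col-0. These 2 genes were low where the line is known to carry the mutation. Of the other mutated genes 4 were called higher in jazD than in Col-0, since JAZ3, JAZ9, JAZ10 and JAZ13 averaged 29.5, 138, 42.6 and 19.7 CPM in jazD, against 13.3, 62.3, 3.28 and 0.413 CPM in Col-0, and JAZ3 and JAZ10 were also called higher in jazQ (51.9 and 18.4 CPM). A mutated gene can keep transcript, so the levels of those 4 genes do not check the labels. Col-0 replicate 3 stood apart from the other Col-0 libraries, with a score of 5.94 on the second principal component against 22.96 and 24.02, and values of the members that rest on it are given without it as well. On that component jazQ replicate 2 stood apart from its group too, at -29.51 against -9.83 and -13.64. Fits without jazQ replicate 2 are among those that left out 1 library. The 5 leaf markers summed to 37650 to 38330 CPM in jazD, 39550 to 46670 CPM in jazQ and 40870 to 42220 CPM in Col-0. Of the 5, 2 were called lower in jazD than in Col-0 and 3 were not called, with a median log2 fold change of -0.23. The 2 were RCA (-0.50 ± 0.07, adjusted p = 0.000118, edgeR) and PRK (-0.39 ± 0.06, adjusted p = 0.000633, edgeR), beside 12.5% of all genes tested called lower. The 6 flower markers summed to 0.486 to 0.643 CPM in jazD, 0.665 to 1.06 CPM in jazQ and 1.21 to 1.55 CPM in Col-0. AP3 totalled 0 counts in jazD, 1 in jazQ and 2 in Col-0, too few to compare. In jazD and Col-0, AP1 totalled 1 and 17 counts, SEP1 3 and 17, AG 4 and 10, SEP3 17 and 21, and PI 5 and 5. The 6 root markers summed to 0.0565 to 0.270 CPM in jazD, 0.133 to 0.385 CPM in jazQ and 0.0528 to 0.230 CPM in Col-0, with CASP2 and EXPA7 at 0 throughout.

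TPS04 and TPS10 were higher in jazD than in Col-0, by 5.09-fold and 39.4-fold. Of the 9 members, 7 had a count in some library and 3 were abundant enough to be tested. Both calls were made among 3 tested members, beside 25.8% of the 19405 genes tested that were called in this comparison and 13.3% that were called higher. TPS10 passed the count filter only through its jazD libraries, so its place among the 3 depends on its being high there. Calls were made at 0.05 on p-values adjusted over all genes tested, from the edgeR quasi-likelihood test on all 9 libraries. In bulk rosettes fewer cells of a type and less RNA per cell cannot be told apart, and the p-values measure the spread between the pools of plants.

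TPS10 had 81, 65 and 68 counts in the jazD libraries, 4, 3 and 2 in jazQ, and 2, 0 and 3 in Col-0. On the scaled level this was 4.38, 3.80 and 3.84 CPM in jazD, 0.266, 0.177 and 0.0963 CPM in jazQ, and 0.115, 0 and 0.158 CPM in Col-0. All jazD libraries lay far above every other library, and jazQ overlapped Col-0. The log2 fold change was 5.30 ± 0.40 (standard error) for jazD against Col-0 (adjusted p = 4.97e-07, edgeR) and 4.49 ± 0.36 for jazD against jazQ (adjusted p = 9.45e-07, edgeR). For jazQ against Col-0 it was 0.81 ± 0.71 and did not pass (adjusted p = 0.708, edgeR). The sizes rest on a total of 5 counts in Col-0 and 9 in jazQ, and without Col-0 replicate 3 the change against Col-0 was 5.92. The jazD libraries varied little, with a coefficient of variation of 8.03%.

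TPS04 showed a graded order of its levels. It had 192, 243 and 255 counts in jazD, 69, 87 and 143 in jazQ, and 31, 30 and 74 in Col-0, or 10.4, 14.2 and 14.4 CPM in jazD, 4.59, 5.13 and 6.89 CPM in jazQ and 1.78, 1.83 and 3.91 CPM in Col-0. The 3 genotypes did not overlap on the CPM scale, although the highest Col-0 library, replicate 3, came close to the lowest jazQ library. The log2 fold change was 2.35 ± 0.28 for jazD against Col-0 (adjusted p = 0.000293, edgeR) and 1.21 ± 0.25 for jazD against jazQ (adjusted p = 0.00656, edgeR). For jazQ against Col-0 it was 1.14 ± 0.31 and did not pass (adjusted p = 0.154, edgeR). That last value passed without Col-0 replicate 3 (1.63, adjusted p = 0.00558, edgeR) and with the Wald test of DESeq2 (1.14, adjusted p = 0.00407), so the call of the intermediate level in jazQ rests on the choice of test and on 1 library. The other fits that left out 1 library did not call it, with adjusted p up to 0.428 (edgeR).

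TPS03 was the most uneven of the tested members. It had 120, 192 and 234 counts in jazD, 3, 28 and 28 in jazQ, and 22, 22 and 111 in Col-0. Its levels were 6.48, 11.2 and 13.2 CPM in jazD, 0.200, 1.65 and 1.35 CPM in jazQ, and 1.27, 1.34 and 5.86 CPM in Col-0. The jazD libraries lay above all others, but Col-0 replicate 3 came near the lowest of them, and jazQ replicate 1 lay far below the rest of its group. The coefficient of variation was 33.5% in jazD, 71.8% in jazQ and 93.1% in Col-0. Against jazQ the log2 fold change in jazD was 3.20 ± 0.75 (adjusted p = 0.0189, edgeR). Against Col-0 it was 1.83 ± 0.64 and did not pass (adjusted p = 0.0821, edgeR), and for jazQ against Col-0 it was -1.38 ± 0.87 (adjusted p = 0.601, edgeR).

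The calls on TPS03 moved with single libraries. Without Col-0 replicate 3 the change in jazD against Col-0 was 2.97 and passed (adjusted p = 0.00889, edgeR). With all libraries and the replicate number as a block it passed too (1.93, adjusted p = 0.0218, edgeR). The jazD against jazQ call was lost without jazD replicate 2 (3.14, adjusted p = 0.0521), jazD replicate 3 (2.99, 0.0527), jazQ replicate 1 (2.78, 0.0504) or jazQ replicate 3 (3.41, 0.0554, all edgeR), where the value stayed between 2.78 and 3.58 over all such fits. For jazQ against Col-0 the change was -0.23 without Col-0 replicate 3, and between -1.76 and -0.23 over the fits that left out 1 library.

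**Figure D1:**
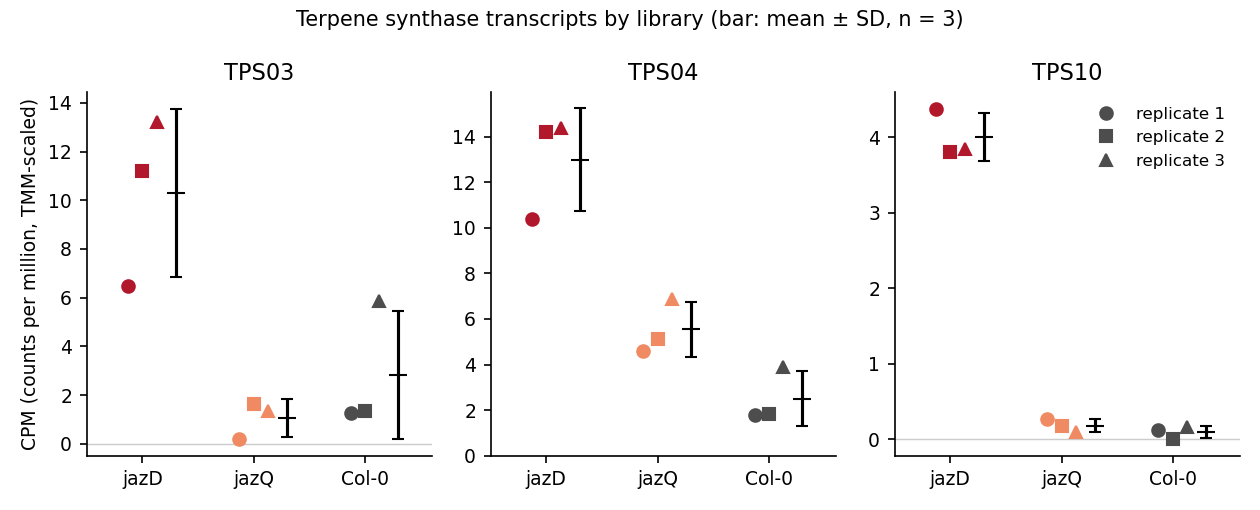
Levels of TPS03, TPS04 and TPS10 in CPM on the vertical axis, with jazD, jazQ and Col-0 side by side, 1 point per library and a bar for the mean ± SD (n = 3). The jazD libraries lie above all others for each gene, and Col-0 replicate 3 is the highest Col-0 library, at 5.86 CPM for TPS03 and 3.91 CPM for TPS04.

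**Figure D2:**
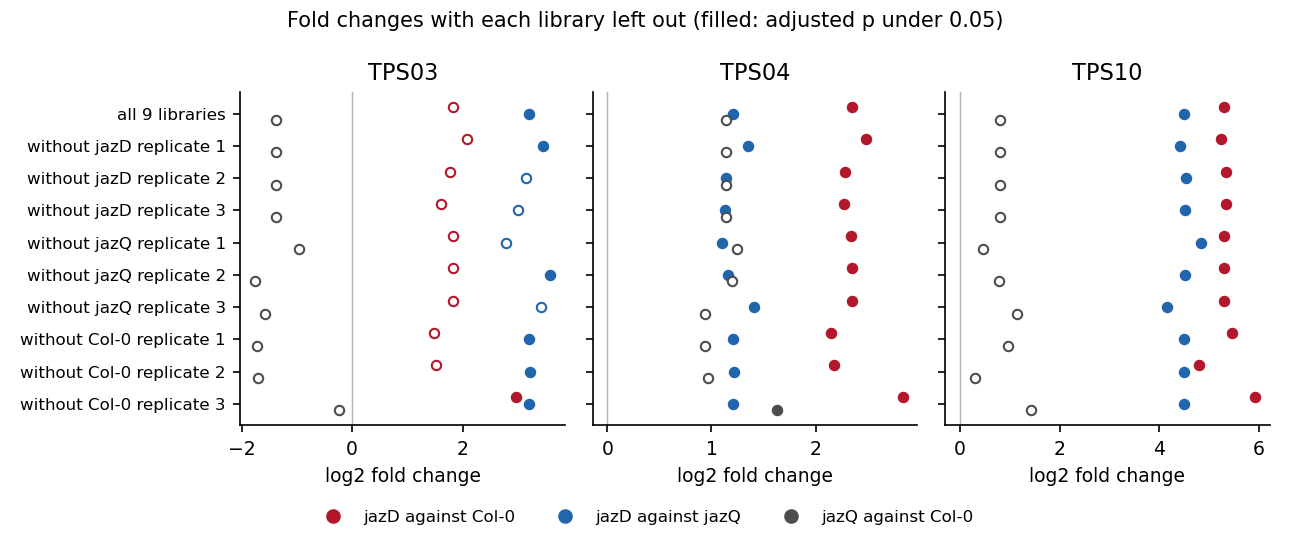
Log2 fold change of TPS03, TPS04 and TPS10 on the horizontal axis, for the fit of all 9 libraries and for the fits that left out the library named on the vertical axis. Filled points passed the test, and among the fits shown the jazD against Col-0 change of TPS03 passed only without Col-0 replicate 3, at 2.97.

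In jazD against jazQ all 3 tested members were higher, beside 28.8% of all genes tested that were called and 15.0% called higher. As TPS10 was tested only because of its jazD libraries, the counts and medians over the 3 for jazD are partly set by the filter. In jazQ against Col-0 edgeR called 0 of the 3, beside 1.27% of all genes tested, 0.861% called higher and 0.412% called lower. Of those 3, 1 (TPS04) had an unadjusted p under 0.05, and the Wald test of DESeq2 called 1, again TPS04. Each genotype's libraries enter a pair of these comparisons, so their values for a gene are not independent. The median log2 fold change of the 3 tested members was 2.35 for jazD against Col-0, 0.81 for jazQ against Col-0 and 3.20 for jazD against jazQ, and over all genes tested it was within 0.01 of 0 each time.

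The other 6 members had at most 8 counts in any library and entered no main test. TPS02 had 8, 4 and 8 counts in jazD, 1, 1 and 3 in jazQ, and 0, 0 and 3 in Col-0. Its jazD libraries did not overlap the rest, and its summed counts scaled to library size were 6.59 times those of Col-0 (20 against 3 counts, 95% interval 1.95 to 34.6). All counts of TPS02 in Col-0 came from replicate 3. TPS23 had 4, 7 and 5 counts in jazD, 0 in each jazQ library, and 0, 0 and 1 in Col-0. The jazD level was 15.8 times that of Col-0 (16 against 1 count, interval 2.46 to 663), and at least 5.27-fold higher than in jazQ when 3 counts over the 3 jazQ libraries are set as the upper limit for a gene without reads. The intervals are exact conditional ones and cover counting error only, as the limit does. With no low-count filter edgeR called 4 members higher in jazD than in Col-0, TPS04, TPS10, TPS02 (2.58 ± 0.83, adjusted p = 0.0336) and TPS23 (3.57 ± 1.02, adjusted p = 0.0185), beside 19.6% of the 25353 genes then tested, and 10.4% called higher. Without Col-0 replicate 3, which also held the 1 count of TPS23 in wild type, both genes had 0 counts in Col-0. TPS02 was then at least 4.22-fold higher in jazD and TPS23 at least 3.37-fold, against 3 counts over the 2 remaining libraries, and both were still called with no filter (adjusted p = 0.00709 and 0.0233, edgeR). With no filter and all 9 libraries, TPS23 was also called against jazQ (adjusted p = 0.00512, edgeR) and TPS02 was not (1.91 ± 0.76, adjusted p = 0.0794, edgeR), beside 21.8% of genes called and 11.8% called higher.

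TPS14 and TPS11 stood at the limit of detection. TPS14, the linalool synthase, had 2, 2 and 2 counts in jazD, 3, 0 and 3 in jazQ, and 1, 1 and 0 in Col-0. TPS11, which makes a mixture of floral sesquiterpenes, had 2, 0 and 1 counts in jazD, 3, 2 and 3 in jazQ, and 4, 2 and 3 in Col-0. Neither pattern passed with no filter, at 1.41 ± 1.13 for TPS14 (adjusted p = 0.455, edgeR) and -1.49 ± 0.89 for TPS11 (adjusted p = 0.291, edgeR) in jazD against Col-0. TPS21, the caryophyllene synthase of the flower, had 0 counts in all 9 libraries, which allows up to 0.0563 CPM over the jazD libraries, 0.0569 CPM over jazQ and 0.0570 CPM over Col-0.

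TPS27 was listed at 0 in all 9 libraries too, but that value cannot be read alone. TPS23 and TPS27 are identical over all 3629 bases of the gene in TAIR10.1, including all 1803 coding bases, and the 250 bases upstream are the same. Every count of the pair was listed under TPS23, so the counts given for TPS23 belong to the pair and which copy was transcribed cannot be told apart. When TPS02 and TPS03 were summed into 1 feature, the change was 1.85 ± 0.63 in jazD against Col-0 (adjusted p = 0.0767, edgeR) and 3.14 ± 0.73 in jazD against jazQ (adjusted p = 0.0189, edgeR).

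**Figure D3:**
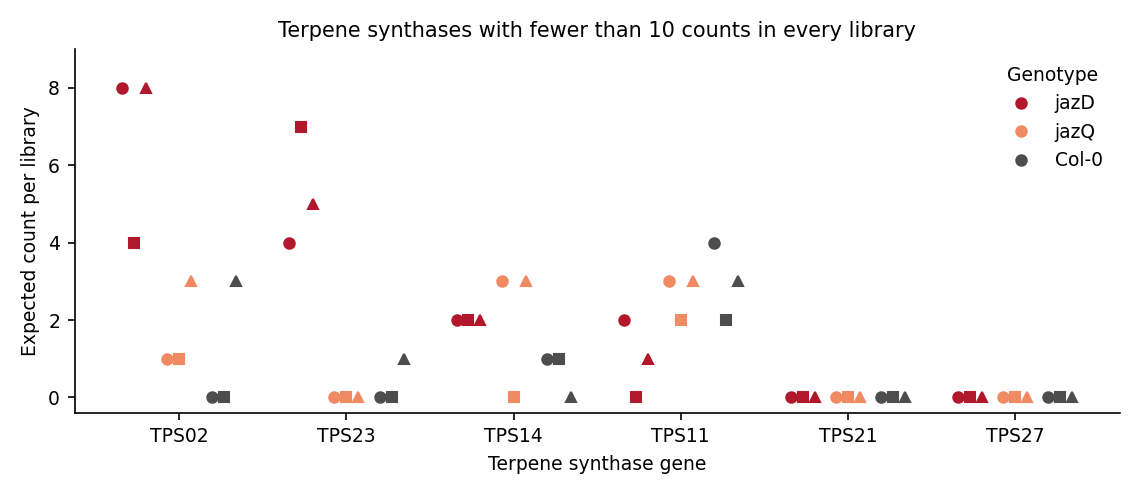
Expected counts per library on the vertical axis for the 6 members too low for the main test, with jazD, jazQ and Col-0 from left to right for each gene and 1 point per library. TPS02 and TPS23 reach 8 and 7 counts in jazD, and TPS21 and TPS27 are at 0 throughout.

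Levels between genes were compared as TPM values, which allow for transcript length. In jazD the order was TPS03 (7.14 ± 2.45 TPM), TPS04 (5.50 ± 0.99), TPS10 (2.59 ± 0.20), TPS02 (0.253 ± 0.0815) and TPS23 (0.193 ± 0.0611), with SD and n = 3. The first pair of neighbours overlapped between libraries, as did TPS02 and TPS23, while TPS04 and TPS10 did not. In jazQ the order was TPS04 (2.44 ± 0.52 TPM) and TPS03 (0.780 ± 0.572), which did not overlap, and then TPS10 and TPS11, both at 0.117 TPM. In Col-0 it was TPS03 (2.07 ± 1.94 TPM), TPS04 (1.12 ± 0.55), which overlapped, and then TPS11 (0.130 ± 0.0458) and TPS10 (0.0633 ± 0.0569), which overlapped too. So TPS10 stood above TPS11 in jazD, whereas in Col-0 their libraries overlapped. The members summed to 12.2, 16.6 and 18.6 TPM in jazD, 2.63, 3.85 and 4.34 TPM in jazQ, and 2.01, 1.93 and 6.45 TPM in Col-0, where replicate 3 was again the highest of its group.

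Across the 9 libraries the log2 CPM of TPS04 and TPS10 had a Pearson correlation of 0.866, that of TPS03 and TPS10 of 0.726 and that of TPS03 and TPS04 of 0.641, given as descriptions of libraries that share their genotype. The genes most like TPS10 were AT5G02940 (0.994), a gene of unknown function, and PDR6 (AT2G36380, 0.993), an ABC transporter gene. AT5G02940 had 485, 492 and 494 CPM in jazD, 126, 139 and 109 CPM in jazQ, and 101, 84.7 and 120 CPM in Col-0. Most like TPS04 were AT3G05730 (0.987), which encodes a defensin-like protein, and AT2G43535 (0.985), which encodes a protein of the knottin family. AT3G05730 had 217, 223 and 248 CPM in jazD, 141, 159 and 153 CPM in jazQ, and 92.3, 96.1 and 125 CPM in Col-0, the same order of genotypes as TPS04. Most like TPS03 were PBL1 (AT3G55450, 0.982), a receptor-like cytoplasmic kinase gene, and PPCK1 (AT1G08650, 0.973), a kinase gene of phosphoenolpyruvate carboxylase. PBL1 had 24.1, 29.5 and 28.6 CPM in jazD, 11.0, 15.1 and 17.3 CPM in jazQ, and 16.8, 17.6 and 24.1 CPM in Col-0, with Col-0 replicate 3 and jazQ replicate 1 placed as for TPS03.

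Most genes of the pathways that supply the synthases with substrate were lower or not called in jazD against Col-0. Of the 7 MEP pathway genes, which make the precursors of plastid terpenes, 5 were lower in jazD than in Col-0 and the other 2 did not pass, with a median log2 fold change of -0.20, beside 12.5% of all genes tested that were called lower. HDS (AT5G60600), a late enzyme of the route, was at -0.22 ± 0.05 (adjusted p = 0.00790, edgeR) and MCT (AT2G02500), an early enzyme of the route, at -0.27 ± 0.07 (adjusted p = 0.0106, edgeR). MCT had 21.3, 20.6 and 21.4 CPM in jazD, 27.2, 27.9 and 27.7 CPM in jazQ, and 25.6, 24.1 and 26.4 CPM in Col-0. Against jazQ, 6 of the 7 were lower in jazD, beside 13.8% of all genes called lower. The shifts are small and the count of 5 moved with single libraries, to 2 without jazD replicate 2, jazD replicate 3 or Col-0 replicate 1, 3 without Col-0 replicate 2 and 4 without jazD replicate 1 or Col-0 replicate 3, while the median stayed between -0.23 and -0.16 (edgeR). The count against jazQ was 4 without jazD replicate 2 or jazQ replicate 2, and 5 or 6 in the other such fits. For scale, the median of the 5 leaf markers in jazD against Col-0 was -0.23. Of the 11 mevalonate pathway genes 1 was called higher and 1 lower in jazD against Col-0, with a median of -0.06, beside 13.3% of all genes tested called higher and 12.5% called lower. The one that rose was AT1G31910 (0.30 ± 0.06, adjusted p = 0.00148, edgeR), and HMG1 (AT1G76490), the HMG-CoA reductase of the pathway, fell (-0.48 ± 0.11, adjusted p = 0.0101, edgeR).

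Of the 5 prenyl diphosphate synthase genes, 1 was lower in jazD than in Col-0, beside 12.5% of all genes tested called lower. It was FPS1 (AT5G47770), which makes the farnesyl diphosphate used by sesquiterpene synthases, at 45.7, 41.8 and 41.9 CPM in jazD, 82.7, 81.0 and 78.5 CPM in jazQ, and 78.0, 73.8 and 72.2 CPM in Col-0. The jazD libraries lay below all others without overlap, with -0.79 ± 0.06 on the log2 scale (adjusted p = 7.63e-07, edgeR). GPPS, FPS2, GGPPS11 and GGR did not pass (0.22 ± 0.09, -0.19 ± 0.08, -0.07 ± 0.06 and -0.12 ± 0.08), and GPPS was called higher in jazD against jazQ (0.33 ± 0.09, adjusted p = 0.0137, edgeR), a call lost without jazD replicate 2 (0.25, adjusted p = 0.0694) or jazQ replicate 1 (0.27, adjusted p = 0.0502).

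Of 6 cytochrome P450 genes that oxidise terpenes, 4 were tested, and in jazD against Col-0 1 was higher and 1 lower, beside 13.3% and 12.5% of all genes tested. CYP76C2 (AT2G45570), of a family that oxidises monoterpenols such as linalool, had 2.65, 1.99 and 2.03 CPM in jazD, 0.333, 0.354 and 0.289 CPM in jazQ, and 0.460, 0.244 and 0.475 CPM in Col-0. It rose by 2.46 ± 0.29 on the log2 scale (adjusted p = 3.52e-05, edgeR), and its jazD libraries did not overlap the others. CYP76C2 would not have passed the count filter without its jazD libraries. CYP706A3 (AT5G44620), which lies beside TPS11 and oxidises terpenes of the flower, had 0.486, 0.760 and 0.508 CPM in jazD, 1.26, 1.3 and 1.06 CPM in jazQ, and 1.5, 1.41 and 1.58 CPM in Col-0. It fell in jazD (-1.35 ± 0.26, adjusted p = 0.00216, edgeR), with all jazD libraries below the rest. CYP82G1 (AT3G25180), the enzyme that cleaves the TPS04 product to the homoterpene, had 1.84, 6.02 and 2.48 CPM in jazD, 2.79, 8.62 and 3.08 CPM in jazQ, and 1.73, 2.81 and 1.79 CPM in Col-0. Replicate 2 was the highest library in every genotype, the groups overlapped, and the change did not pass (0.70 ± 0.66, adjusted p = 0.498, edgeR). CYP76C1 was at -0.31 ± 0.23 and did not pass, while CYP71B31 and CYP76C3 were too low to test.

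Among 22 other terpene synthase genes, 16 had a count and 5 were tested. Of these, 1 was lower in jazD than in Col-0, GA2 (AT1G79460), the kaurene synthase of gibberellin synthesis, and the other 4 did not pass, beside 12.5% of all genes tested called lower. GA2 had 11.0, 9.30 and 9.37 CPM in jazD, 22.1, 23.0 and 21.4 CPM in jazQ, and 22.4, 21 and 23.6 CPM in Col-0. The jazD libraries lay below all others, at -1.18 ± 0.09 (adjusted p = 5.68e-07, edgeR). GA1 (AT4G02780), which acts before GA2, was at -0.86 ± 0.33 and did not pass (adjusted p = 0.0737, edgeR). The median over the 5 was -0.31. With no low-count filter all 16 were fitted, and TPS12 (AT4G13280) was called higher in jazD against Col-0 (1.84 ± 0.56, adjusted p = 0.0235, edgeR), on 14, 8 and 8 counts in jazD, 1, 3 and 3 in jazQ, and 3, 1 and 4 in Col-0. TPS12 was called against jazQ as well (2.03 ± 0.57, adjusted p = 0.0140, edgeR). AT3G29190 had 8, 5 and 2 counts in jazD, 1, 0 and 0 in jazQ, and 1, 0 and 1 in Col-0, and in that fit it was called against jazQ (adjusted p = 0.0237, edgeR) but not against Col-0 (adjusted p = 0.0541, edgeR). These 2 genes were chosen after their values were seen, and with TPS12 a terpene synthase of low counts outside the 9 members was called higher in jazD too.

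Other volatile-forming genes of the leaf were mostly higher in jazD than in Col-0. Of 6, 5 rose and 1 fell, with a median of 2.46 on the log2 scale, beside 13.3% of all genes tested called higher and 12.5% called lower. The counts of 5 and 1 were the same in each of the 9 fits that left out 1 library, Col-0 replicate 3 included (median 2.81). The list was chosen with earlier results of these data known. BSMT1 and CHAT would not have passed the count filter without their jazD libraries. LOX2 (AT3G45140), a plastid lipoxygenase that feeds jasmonate and green leaf volatile synthesis, had 4750, 4890 and 4940 CPM in jazD, 657, 667 and 735 CPM in jazQ, and 490, 479 and 626 CPM in Col-0 (3.19 ± 0.10, adjusted p = 1.55e-10, edgeR). HPL1 (AT4G15440) is named for the hydroperoxide lyase of green leaf volatiles. Its transcript had 20.0, 21.1 and 22.5 CPM in jazD, 2.00, 3.48 and 2.94 CPM in jazQ, and 1.67, 1.34 and 3.38 CPM in Col-0 (3.28 ± 0.25, adjusted p = 8.17e-06, edgeR). In both genes the jazD libraries stood clear of the rest, and Col-0 replicate 3 was the highest wild-type library. Whether the transcripts of HPL1 or of the other listed genes give working enzyme or more volatile in these lines was not tested. BSMT1, a methyltransferase that makes methyl salicylate and methyl benzoate, rose by 3.47 ± 0.74 (adjusted p = 0.00546, edgeR). CHAT, an acyltransferase of leaf volatile esters, rose by 1.72 ± 0.42 (adjusted p = 0.00839, edgeR), and JMT, which makes methyl jasmonate, by 1.16 ± 0.14 (adjusted p = 4.69e-05, edgeR). ADH1, an alcohol dehydrogenase, fell (-0.80 ± 0.17, adjusted p = 0.00442, edgeR). In jazQ against Col-0, JMT was the 1 gene of the 6 called (0.89 ± 0.14, adjusted p = 0.00625, edgeR). LOX2 was at 0.37 ± 0.09 there (adjusted p = 0.0886, edgeR), and it passed without Col-0 replicate 3 (0.50, adjusted p = 0.00230, edgeR) and with the Wald test of DESeq2 (adjusted p = 0.0189).

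Of 6 transcription factor genes known to act on terpene synthases or in flower scent, 4 were tested and 2 rose in jazD against Col-0, beside 13.3% of all genes tested called higher. MYC2 (AT1G32640) had 123, 149 and 136 CPM in jazD, 42.4, 84.5 and 56.7 CPM in jazQ, and 28.7, 34.6 and 36.8 CPM in Col-0, with no overlap between the genotypes (2.03 ± 0.25, adjusted p = 0.00102, edgeR). For jazQ against Col-0 its change was 0.88 ± 0.25 and did not pass (adjusted p = 0.210, edgeR), although it passed without jazQ replicate 1 (1.08, adjusted p = 0.0445, edgeR) and with the Wald test of DESeq2 (adjusted p = 0.0424). MYC3 (AT5G46760), a close relative of MYC2, rose by 0.46 ± 0.08 (adjusted p = 0.00104, edgeR), while MYC4 and SPL9 did not pass (-0.03 ± 0.12 and -0.24 ± 0.10). MYB21, a regulator of flower scent, was at 0 in 8 of 9 libraries. Its relative MYB24 was too low to test, at 0.324, 0.526 and 0.226 CPM in jazD, 0.133, 0.531 and 0.193 CPM in jazQ, and 0, 0.0611 and 0.106 CPM in Col-0. Both mutants lay above Col-0 for MYB24 without overlap, on few counts.

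**Figure D4:**
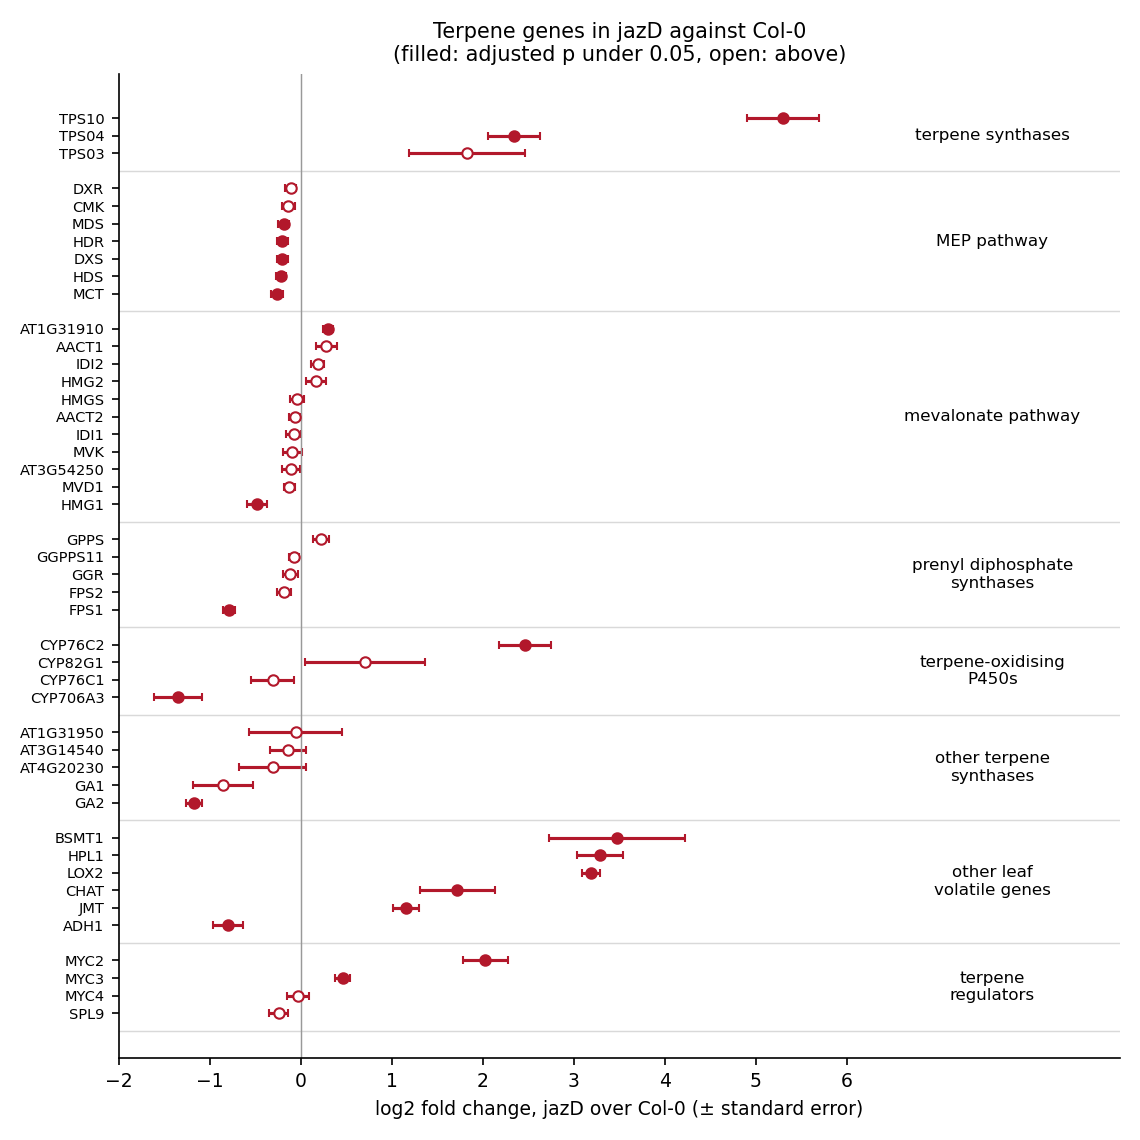
Log2 fold change of jazD over Col-0 on the horizontal axis, with its standard error, for the tested terpene synthases and for the genes of the pathways and regulators around them, grouped on the vertical axis. Filled points passed the test, with TPS10 at 5.30 and TPS04 at 2.35, while the MEP pathway genes lie between -0.27 and -0.11.

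Markers of trichomes, leaf hairs that hold specialised metabolites in many plants, differed in part. The 4 markers summed to 18.3 to 23.0 CPM in jazD, 21.8 to 25.9 CPM in jazQ and 15.6 to 17.6 CPM in Col-0. Of the 4, 2 rose in jazD against Col-0, GL3 (1.34 ± 0.41, adjusted p = 0.0299, edgeR) and GL2 (0.31 ± 0.11, adjusted p = 0.0490, edgeR), beside 13.3% of all genes tested called higher. GL1 and MYB23 did not pass (-0.08 ± 0.24 and 0.35 ± 0.17, adjusted p = 0.855 and 0.167, edgeR). The part of the trichome markers in the levels of the terpene synthases was not tested. The GL3 call was lost without jazD replicate 1, jazD replicate 2 or Col-0 replicate 2 (adjusted p = 0.0908 to 0.0945, edgeR), and the GL2 call without any 1 of these, Col-0 replicate 1, Col-0 replicate 3 or jazQ replicate 3 (adjusted p = 0.0613 to 0.207, edgeR). GL2 was also called in jazQ against Col-0 (0.51 ± 0.10, adjusted p = 0.0304, edgeR), a call lost without jazD replicate 2 or any 1 of the jazQ and Col-0 libraries (adjusted p = 0.0516 to 0.131, edgeR). GL3 was at 1.66 ± 0.40 in jazQ against Col-0 and did not pass (adjusted p = 0.0734, edgeR). It passed there with no filter (adjusted p = 0.0362, edgeR), with the replicate number as a block (0.0174, edgeR) and with the Wald test of DESeq2 (0.0298).

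The jazD plants carry an asterisk on the accession label, so the genes around each member were counted. Among the 10 tested genes on either side of TPS10, 6 of 20 were called in jazD against Col-0, and among those around TPS04 3 of 20, beside 25.8% of all genes. Around TPS03 8 of 20 (40%) were called and around TPS23 6 of 20, and among the rest TPS02 had 8, TPS14 7 and TPS21 4. The neighbours of TPS02 and TPS03 are nearly all the same genes, so their counts are not separate. Around TPS11 11 of 20 (55%) were called, 2 higher and 9 lower. Of these, chosen after their values were seen, AT5G44569 had 0 counts in jazD, against 1.66 ± 0.26 CPM in jazQ and 1.43 ± 0.31 CPM in Col-0, and AT5G44582 had 0.0368 ± 0.0319 CPM in jazD, against 3.05 ± 0.57 CPM in jazQ and 3.41 ± 0.32 CPM in Col-0. In the same stretch AT5G44570 had 18.3 ± 1.29 CPM in jazD, 0.372 ± 0.125 CPM in jazQ and 0.6 ± 0.334 CPM in Col-0 (SD, n = 3). CYP706A3 lies in this stretch, and the part of the stretch in its fall was not tested.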

How the data were processed

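RNA-seq of 9 libraries was read from 2 tables that the authors deposited, 1 of expected counts for each gene and 1 of TPM values, per the file headers. The submitters' processing notes name RSEM 1.2.25 and TAIR10. Neither the aligner nor the strandedness is given in the sources used here. Expected counts divide reads between similar genes by estimation. They were rounded, kept with filterByExpr (minimum count 10; 19405 genes), scaled with TMM and tested with the quasi-likelihood test of edgeR 4.0.16 in R 4.3.3, with 1 fit of all libraries and a contrast per comparison. Benjamini-Hochberg adjustment ran over all genes tested. The fit was tested on simulated data. Total counts of 15370271 to 20730459 make levels under about 10 counts imprecise. Alternatives used DESeq2 1.42.0, limma 3.58.1 on log2(TPM + 1) and log2(TPM + 0.1), other filters, fits of the 2 genotypes compared, the replicate number as a block, summed tandem copies and each library left out. Summed tandem copies with no filter, list counts with a library left out, and the fit with no filter and without Col-0 replicate 3 were added after seeing the data.

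Groups and replicate numbers came from the sample titles. Coding sequences were aligned with Biopython 1.88, and upstream windows were taken by gene identifier from the RefSeq TAIR10.1 assembly, whose name differs from that of the files' build, TAIR10. The members and gene lists were chosen with earlier results of these data known. Genes named are the 9 members, the list genes of smallest p (the top 2 in jazD against Col-0, the top 1 elsewhere), any gene of a list of 6 or fewer, and for each called member the 2 tested genes with the highest Pearson correlation of log2 CPM (prior count 2). FPS1 to GGR, P450, volatile, regulator and trichome genes fall under the third part of the rule, and the JAZ genes only check the labels.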

Additional observations from a re-analysis of the deposited data

How the results depend on the processing

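TPS04 and TPS10 were called in jazD against Col-0 and against jazQ in every alternative that tested them. With a mean of at least 5 CPM TPS03 and TPS10 were not tested, and 1 member was called in each of these 2 comparisons. TPS10 was also not tested in the fit of jazQ and Col-0 alone. With no filter 4 members were called in jazD against Col-0, and with limma on log2(TPM + 1) and no filter 5 in jazD against Col-0 and 5 in jazD against jazQ. TPS03 passed in jazD against Col-0 with limma on log2(TPM + 1) (1.53, adjusted p = 0.0363) and in 4 other fits, of 20. In jazQ against Col-0 the Wald test called 1 member. No member's log2 fold change changed sign. The median of the other terpene synthases in jazD against Col-0 did, at 0.99 over 16 genes with no filter, 1.28 when Col-0 replicate 3 was left out too, and 0.03 with limma and no filter. It was -0.02 over the 12 with more than 3 counts in a group when a group with no count is set to 3 counts. The P450 median, 0.20 in the fit of all libraries, also did, at -0.18 without jazD replicate 2, at -0.30 with a mean of at least 5 CPM and at -0.02 with limma on log2(TPM + 1). With no filter and without Col-0 replicate 3, 5 members were called in jazD against Col-0, and 492 genes and 1 member in jazQ against Col-0. The cause of these moves was not tested, beyond the genes that each filter leaves.

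Libraries with the same replicate number correlated at 0.015 to 0.306 in their deviations, with 6 of 9 pairs above 0.1. Each of the 9 libraries correlated best with a library of its own number, so libraries of a number share some variation. The main fit leaves this sharing out, and what the numbers stand for was not tested. The replicate block called 572 genes in jazQ against Col-0, where 247 were called without it, and 1 member, TPS04 (1.13, adjusted p = 0.00190, edgeR). It also called TPS03 in jazD against Col-0 (1.93, adjusted p = 0.0218, edgeR), CYP82G1 in jazD against Col-0 (0.64, adjusted p = 0.0292, edgeR) and in jazQ against Col-0 (1.11, adjusted p = 0.00458, edgeR), and LOX2 in jazQ against Col-0 (0.37, adjusted p = 0.00557, edgeR). In jazD against Col-0 the block further called CYP76C1 (-0.31, adjusted p = 0.00302) and the leaf marker PSAD1 (-0.23, 0.0153) lower, and GPPS (0.22, 0.038, all edgeR) higher. In jazQ against Col-0 HMG1 (-0.26, adjusted p = 0.0424) and GGR (-0.31, 0.0426, both edgeR) were then called lower. Fits that left out 1 library called 136 to 367 genes and 0 to 1 members in jazQ against Col-0, with the highest count of genes and the 1 member without Col-0 replicate 3, 2 to 3 members in jazD against Col-0, and 2 to 3 in jazD against jazQ. The counts of the 6 low members limit what can be said of them, since a total of 3 counts over a group is the limit that a count of 0 allows.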
